A study of Mus musculus with 24 samples.

Results

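Tcf7, Lef1, Id3, Bach2, Klf2, Foxo1, Bcl6, Satb1 and S1pr1 are 9 genes of naive, memory and stem-like T cells, taken by symbol from the 23366 genes of the deposited tables. Each had a value in all 24 libraries of cultured mouse CD8+ T cells. The libraries form 8 groups of 3. At day 9 the cells were WT (E8i-Cre- Nr3c1fl/fl) and had received dexamethasone with IL27 (Dex+IL27), dexamethasone alone (Dex), IL27 alone (IL27) or neither (Ctrl). At day 3 they were cKO (E8i-Cre+ Nr3c1fl/fl) with Dex or as Ctrl, and WT with Dex or as Ctrl. Dexamethasone, a synthetic glucocorticoid, was given at 10 nM, and IL27, a cytokine, at 25 ng/ml. E8i is an enhancer of the CD8 gene locus that drives Cre in CD8+ cells, and Nr3c1 encodes the glucocorticoid receptor. All groups carry the floxed Nr3c1 allele, so the WT cells differ from cKO cells in the labels only by the absence of Cre. Naive cells (CD62L high, CD44 negative) were sorted and activated on plates coated with anti-CD3 and anti-CD28 (1 µg/ml of each). Day 9 cultures were activated for 3 days, rested for 3 days with 5 ng/ml IL2, and activated again for 3 days. The labels do not say whether replicates come from separate mice or cultures, so a p-value here reflects how far these libraries differ among themselves, which may be technical.

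Naive T cells keep a set of transcription factors that hold them quiescent and circulating between blood and lymph nodes. Stimulation through the T cell receptor lowers many of these factors, and memory or stem-like cells keep or regain part of the set. Tcf7 (TCF-1) and Lef1 are related DNA-binding factors of this kind. Id3 holds back E proteins, Bach2 and Bcl6 repress effector genes, and Satb1 organizes chromatin in T cells. Foxo1 activates naive-cell genes, among them Klf2, and Klf2 in turn activates S1pr1, the receptor through which T cells leave lymphoid organs. The receptor of IL27 signals through STAT factors, and dexamethasone acts through the glucocorticoid receptor.

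The libraries held 14221900 to 19018400 estimated counts. CD8 T cell markers (5 of 6 listed were in the tables) summed to between 1138 and 1634 CPM (counts scaled to the library total) in every library. Single markers moved in opposite directions within this sum at day 9. Cd8a averaged 271.1 CPM in Dex+IL27, 357.2 in Dex, 235.5 in IL27 and 364.9 in Ctrl. Cd3e averaged 211.7, 154.8, 160.3 and 117 CPM in the same order. At day 3 Nr3c1 had 0.85, 0.91 and 1.31 FPKM in cKO Dex and 1.13, 1.31 and 1.14 FPKM in cKO Ctrl, against 3.39, 3.17 and 3.07 FPKM in WT Dex and 2.68, 2.92 and 2.37 FPKM in WT Ctrl. It was lower in every cKO library, by -1.65 ± 0.15 (log2 ± SE) with Dex (adjusted p = 1.2e-06) and -1.14 ± 0.15 in Ctrl (adjusted p = 8.6e-04), and the exons behind its remaining reads were not analysed here. Replicate 1 of the IL27 group stood apart from its group. Its counts differed from replicates 2 and 3 with a chi-square per degree of freedom of 28.4 and 17.0, against 4.38 to 14.9 in the other pairs within groups. Member and list results with IL27 alone are also given without it. The ribosomal RNA gene Rn45s took 16.0 ± 0.305% of counts in Dex+IL27, 14.6 ± 0.487% in Dex, 14.1 ± 0.405% in IL27 and 9.11 ± 0.15% in Ctrl at day 9 (SD, n = 3 each). At day 3 it was 12.5 ± 0.792% in cKO Dex, 12.8 ± 0.285% in cKO Ctrl, 12.4 ± 0.447% in WT Dex and 11.1 ± 0.566% in WT Ctrl, with every WT Ctrl library below all other day 3 libraries. This share moved with the groups at both days and its part in the results was not tested.

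Levels are given as FPKM, fragments per transcript length and library size, as deposited. These values are per length and can be compared between genes. Lef1 had the highest mean of the 9 genes in every group, from 84.5 ± 5.85 FPKM in Dex+IL27 at day 9 to 45.3 ± 1.26 FPKM in Ctrl at day 9 (SD, n = 3 each). Klf2 had the lowest mean in every group, with 0 to 0.68 FPKM per library.

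**Figure D1:**
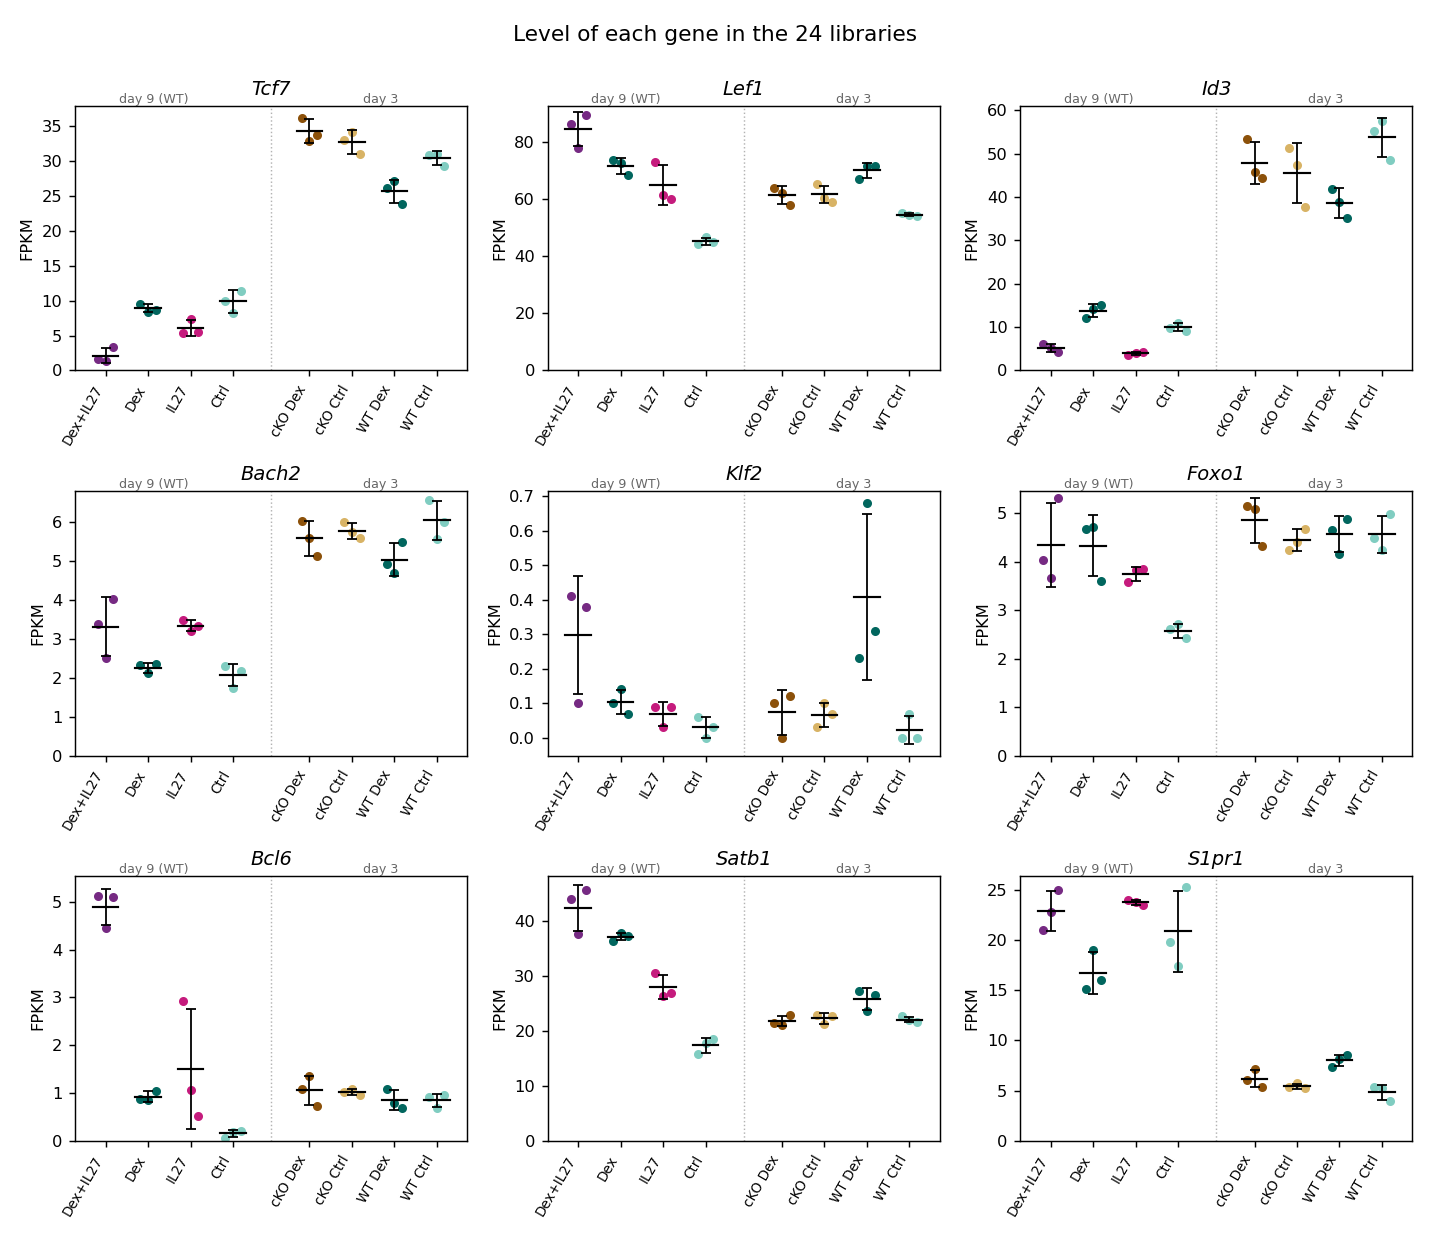
FPKM (y axis, linear, own scale per gene) of the 9 genes in each of the 24 libraries (points), with the group mean (bar) and SD (whisker, n = 3). Day 9 groups stand left of the dotted line and day 3 groups right of it; Tcf7 and Id3 were low at day 9, S1pr1 was high there, and Bcl6 was highest in Dex+IL27.

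RefSeq start-site windows (GRCm38.p6, 250 bases before to 50 after a start) were found for 8 of the 9 genes, 17 windows in all. Some genes have several windows that overlap. They were searched on both strands for the letters of 5 motifs: ACANNNTGT (the core of the glucocorticoid receptor palindrome), TTCNNNGAA (STAT), CTTTGAA and CTTTGAT (TCF/LEF) and GTAAACA (FOXO). The STAT letters were in 3 of the 17 windows, against 8.3% of the 32851 windows in the table. These were both windows of Bcl6 and the window of Bach2. The Bach2 window and the second Bcl6 window printed below lie inside the genes, at inner starts and not at the outer start. Bach2 spans chr4:32238413-32586109 and Bcl6, on the minus strand, chr16:23965050-23988866. Of all windows, 0.033% held the STAT letters 3 or more times, and 1 Bcl6 window was among them. That cut equals the number in this Bcl6 window and no other cut was counted, so the share is a description only. The glucocorticoid receptor letters were in none of the 17 windows (6.85% of all windows), and neither TCF/LEF form was in any (5.14% and 3.73% of all). The FOXO letters were in 1 Tcf7 window, 2 bases into the transcript (3.65% of all windows). A match is a string of letters and not a shown binding site. The 250 bases before the start are printed for the windows with the STAT letters, which are in capitals, because the IL27 receptor signals through that family; they run 5′ to 3′ on the gene's strand.
Bcl6, chr16:23988853-23989102, minus strand: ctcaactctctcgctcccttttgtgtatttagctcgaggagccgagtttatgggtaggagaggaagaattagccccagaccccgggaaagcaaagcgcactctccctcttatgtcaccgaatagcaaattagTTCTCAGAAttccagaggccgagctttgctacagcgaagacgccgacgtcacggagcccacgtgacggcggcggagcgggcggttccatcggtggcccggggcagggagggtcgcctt
Bcl6, chr16:23981284-23981533, minus strand: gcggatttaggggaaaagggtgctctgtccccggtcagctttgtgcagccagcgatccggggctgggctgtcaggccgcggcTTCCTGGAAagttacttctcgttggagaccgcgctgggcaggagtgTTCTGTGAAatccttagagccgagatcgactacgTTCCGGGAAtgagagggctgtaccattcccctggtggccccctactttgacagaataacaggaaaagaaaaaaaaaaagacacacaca
Bach2, chr4:32417185-32417434, plus strand: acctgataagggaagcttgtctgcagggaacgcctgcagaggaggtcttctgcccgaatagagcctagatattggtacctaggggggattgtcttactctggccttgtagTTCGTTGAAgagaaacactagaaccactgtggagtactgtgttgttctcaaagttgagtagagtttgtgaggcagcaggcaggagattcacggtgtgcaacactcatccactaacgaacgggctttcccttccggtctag

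At day 9 the naive-cell genes did not move as a block. With Dex+IL27, Tcf7 and Id3 fell while Bcl6, Satb1, Lef1, Foxo1 and Bach2 rose, and S1pr1 did not pass the test. Changes are log2 fold changes of estimated counts ± SE from edgeR's quasi-likelihood test, and a gene passed where its Benjamini-Hochberg adjusted p over all tested genes was under 0.05. Klf2 did not reach the low-count filter, so 8 of the 9 genes were tested at each day. With Dex+IL27 against Ctrl 5 of 8 rose and 2 fell, where 34.2% of all tested genes rose and 32.6% fell. With Dex alone 5 rose (Bcl6, Satb1, Foxo1, Lef1 and Id3) and 1 fell (S1pr1), where 28.2% of genes rose and 27.4% fell. With IL27 alone 5 rose and 2 fell, the same genes and directions as with Dex+IL27, where 29.3% of genes rose and 28.1% fell. Without IL27 replicate 1 all 9 genes were tested, and the IL27 count was 5 higher and 1 lower, where 25.6% of genes rose and 25.3% fell. The 3 comparisons share their Ctrl libraries. The median over the 8 genes was 0.75 with Dex+IL27, 0.57 with Dex and 0.54 with IL27, beside 0.05, 0.03 and 0.04 over all genes tested.

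**Figure D2:**
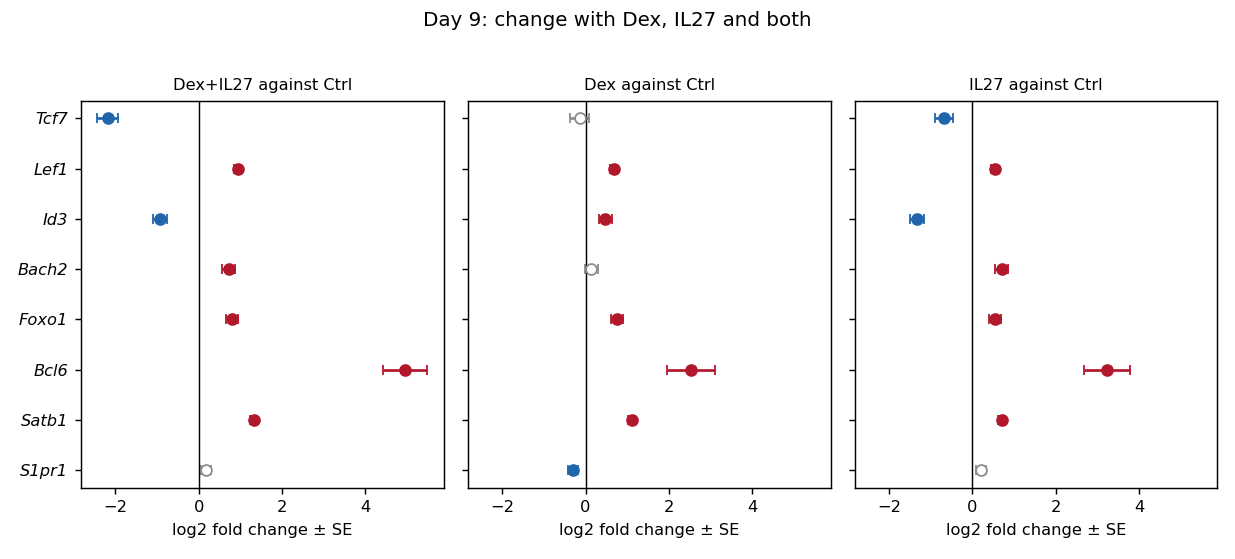
Log2 fold change ± SE (x axis) of the 8 tested genes (rows) at day 9 with Dex+IL27, Dex and IL27, each against Ctrl (3 libraries a group). Filled red points rose, filled blue points fell and open grey points did not pass; Id3 rose with Dex and fell with IL27, and Tcf7 was lowest with Dex+IL27.

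Tcf7, the factor most used to mark stem-like CD8+ T cells, had 1.62, 1.39 and 3.32 FPKM in Dex+IL27. It had 9.54, 8.42 and 8.72 FPKM in Dex, 5.37, 7.39 and 5.57 FPKM in IL27, and 9.93, 8.28 and 11.5 FPKM in Ctrl. All Dex+IL27 libraries lay below all others of day 9, IL27 lay below Dex and Ctrl, and Dex and Ctrl overlapped. Tcf7 fell by 2.18 ± 0.25 with Dex+IL27 against Ctrl (adjusted p = 1.7e-06), a 4.54-fold difference. Against Ctrl it fell by 0.68 ± 0.23 with IL27 (adjusted p = 0.0185) and its change with Dex was under its SE (adjusted p = 0.619). The change with both agents went beyond the sum of the single changes, -0.82, by -1.36 ± 0.34 (interaction, adjusted p = 0.00772). Without replicate 1 of IL27 the interaction was -1.45 (adjusted p = 0.00656). The IL27 call was lost without Ctrl replicate 3 (-0.56, adjusted p = 0.078), without IL27 replicate 1 (-0.60, adjusted p = 0.0566) and without IL27 replicate 3 (-0.62, adjusted p = 0.0653), and held in the other 13 of 16 alternative fits.

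Lef1, the relative of Tcf7, moved the other way. It had 86.1, 77.99 and 89.3 FPKM in Dex+IL27, 73.5, 72.7 and 68.2 FPKM in Dex, 72.8, 61.4 and 60.1 FPKM in IL27, and 44.2, 46.6 and 45.0 FPKM in Ctrl. Every treated library lay above every Ctrl library, and Dex and IL27 overlapped. Lef1 rose by 0.94 ± 0.08 with Dex+IL27 (adjusted p = 9.1e-08), by 0.67 ± 0.08 with Dex (adjusted p = 6.1e-06) and by 0.53 ± 0.08 with IL27 (adjusted p = 5.2e-05). Without IL27 replicate 1, its highest library, the last was 0.44 (adjusted p = 7.8e-05). The interaction, -0.26 ± 0.11, did not pass (adjusted p = 0.0983). Tcf7 and Lef1 had levels of 2.11 ± 1.05 and 84.5 ± 5.85 FPKM in Dex+IL27 against 9.89 ± 1.59 and 45.3 ± 1.26 FPKM in Ctrl (SD, n = 3 each).

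Id3, an inhibitor of E proteins, had 6.00, 5.17 and 4.17 FPKM in Dex+IL27 and 3.56, 4.01 and 4.28 FPKM in IL27. It had 12.1, 14.3 and 15.1 FPKM in Dex and 9.82, 11.0 and 9.19 FPKM in Ctrl. The groups with IL27 overlapped each other and lay below Ctrl, and Dex lay above Ctrl. Id3 changed by -0.93 ± 0.17 with Dex+IL27 (adjusted p = 2.0e-04) and by -1.32 ± 0.17 with IL27 (adjusted p = 1.3e-05; -1.26 without IL27 replicate 1). With Dex it rose by 0.48 ± 0.16 (adjusted p = 0.021). That rise lost its call without Ctrl replicate 1 (0.45, adjusted p = 0.0638), Ctrl replicate 3 (0.42, adjusted p = 0.0807), Dex replicate 2 (0.44, adjusted p = 0.0672) or Dex replicate 3 (0.41, adjusted p = 0.0814), and with no low-count filter (adjusted p = 0.0581), and held in 11 of 16 alternative fits. The interaction of Id3 was under its SE, so Dex and IL27 together gave -0.93 beside a sum of -0.85.

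Bcl6, a repressor that opposes effector programs, had the largest change of the 8 genes in each of these 3 comparisons. It had 5.12, 4.45 and 5.11 FPKM in Dex+IL27, 0.87, 0.86 and 1.05 FPKM in Dex, 2.92, 1.07 and 0.52 FPKM in IL27, and 0.07, 0.19 and 0.21 FPKM in Ctrl. All Dex+IL27 libraries lay above all others and all Ctrl libraries below all others, while IL27 spread across the Dex values. The Ctrl values rest on 4, 11 and 13 estimated counts, so the size of the rises is imprecise. Bcl6 rose by 4.95 ± 0.53 with Dex+IL27 (adjusted p = 9.4e-07), by 2.52 ± 0.58 with Dex (adjusted p = 0.00176) and by 3.23 ± 0.55 with IL27 (adjusted p = 1.5e-04). Without IL27 replicate 1, the library that stood apart, the rise with IL27 was 2.30 (adjusted p = 1.3e-04). The rise with Dex passed in 15 of 16 alternative fits and not in limma on unfiltered log2 FPKM plus 1 (0.74 on that scale, adjusted p = 0.0539). Dex+IL27 exceeded Dex by 2.43 ± 0.43 (adjusted p = 7.5e-04) and exceeded IL27 by 1.72 ± 0.41 (adjusted p = 0.00635), or by 2.65 without that library (adjusted p = 1.3e-05). The interaction, -0.80 ± 0.72, did not pass (adjusted p = 0.443) and was 0.13 without that library. The window of Bcl6 with 3 STAT matches is the second of those printed above, and its part in these changes was not tested.

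Bach2, a repressor that restrains effector genes, ranged over 2.51 to 4.03 FPKM in Dex+IL27, 2.11 to 2.34 FPKM in Dex, 3.20 to 3.48 FPKM in IL27 and 1.74 to 2.29 FPKM in Ctrl. Both groups with IL27 lay above Ctrl, and Dex overlapped Ctrl. Bach2 rose by 0.72 ± 0.15 with Dex+IL27 (adjusted p = 6.5e-04) and by 0.70 ± 0.15 with IL27 (adjusted p = 9.9e-04; 0.67 without IL27 replicate 1). Its change with Dex was under its SE. Satb1, a chromatin organizer, had 44.0, 37.6 and 45.5 FPKM in Dex+IL27, 36.4, 37.7 and 37.3 FPKM in Dex, 30.5, 26.4 and 27.0 FPKM in IL27, and 15.9, 17.8 and 18.6 FPKM in Ctrl. Ctrl lay below all others, IL27 next, and Dex and Dex+IL27 overlapped. Satb1 rose by 1.32 ± 0.09 with Dex+IL27 (adjusted p = 5.3e-09), by 1.11 ± 0.09 with Dex (adjusted p = 9.2e-08) and by 0.70 ± 0.09 with IL27 (adjusted p = 6.8e-06; 0.63 without IL27 replicate 1). With both agents Satb1 stayed short of the sum of 1.81, with an interaction of -0.48 ± 0.12 (adjusted p = 0.00835; -0.41 without IL27 replicate 1, adjusted p = 0.0134).

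Foxo1, an activator of naive-cell genes, ranged over 3.67 to 5.32 FPKM in Dex+IL27, 3.61 to 4.72 FPKM in Dex, 3.59 to 3.85 FPKM in IL27 and 2.42 to 2.71 FPKM in Ctrl. The treated groups overlapped each other and lay above Ctrl. It rose by 0.79 ± 0.14 with Dex+IL27 (adjusted p = 1.9e-04), by 0.76 ± 0.14 with Dex (adjusted p = 4.1e-04) and by 0.55 ± 0.14 with IL27 (adjusted p = 0.00414; 0.58 without IL27 replicate 1). Its interaction, -0.53 ± 0.20, did not pass (adjusted p = 0.0648). It passed without Dex replicate 3 (-0.64, adjusted p = 0.0299) or Dex+IL27 replicate 3 (-0.70, adjusted p = 0.0118). S1pr1, the exit receptor, had 21.0, 22.8 and 25.0 FPKM in Dex+IL27, 15.1, 19.02 and 16.0 FPKM in Dex, 23.98, 23.8 and 23.5 FPKM in IL27, and 19.9, 17.4 and 25.3 FPKM in Ctrl. Ctrl spread over most of the range of the other groups. S1pr1 fell by 0.31 ± 0.12 with Dex (adjusted p = 0.0449). That call was lost without Ctrl replicate 3 (-0.15, adjusted p = 0.283), Dex replicate 1 (-0.24, adjusted p = 0.166) or Dex replicate 3 (-0.28, adjusted p = 0.125), and with limma without a filter (adjusted p = 0.0963), all 24 libraries in 1 fit (0.0511) or only Dex and Ctrl (0.0601). It held in 10 of 16 alternative fits. S1pr1 did not pass with Dex+IL27 (0.18 ± 0.12, adjusted p = 0.213) or IL27 (0.20 ± 0.12, adjusted p = 0.166; 0.19 without IL27 replicate 1, adjusted p = 0.248), but without Ctrl replicate 3 both passed (0.33, adjusted p = 0.0167, and 0.37, adjusted p = 0.0126).

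**Figure D3:**
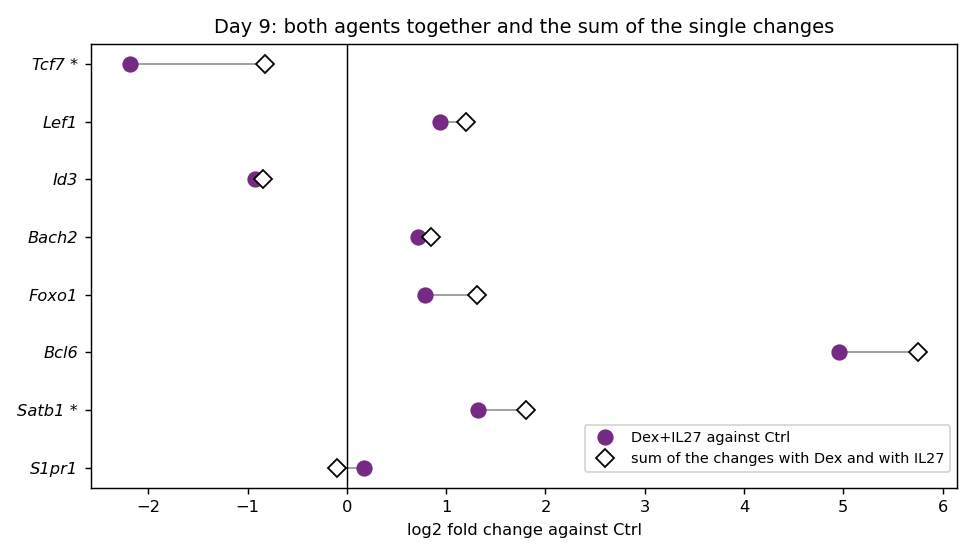
Log2 fold change against Ctrl (x axis) of the 8 tested genes at day 9 with Dex+IL27 (filled circle) and as the sum of the separate changes with Dex and with IL27 (open diamond). The gap is the interaction, and a star marks the genes whose interaction passed, Tcf7 at -1.36 and Satb1 at -0.48.

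Set against each agent alone, Dex+IL27 differed most in Bcl6 and Tcf7. Against Dex, 4 of 8 genes were higher (14.9% of all tested genes) and 2 lower (17.1%). The higher ones were Bcl6, Bach2 (0.58 ± 0.15, adjusted p = 0.00911), S1pr1 (0.48 ± 0.12, adjusted p = 0.00781) and Lef1 (0.27 ± 0.08, adjusted p = 0.0196). Tcf7 was lower by -2.04 ± 0.25 (adjusted p = 4.7e-05) and Id3 by -1.40 ± 0.17 (adjusted p = 4.3e-05). Bach2 lost its call without Dex+IL27 replicate 3 (0.41, adjusted p = 0.0548) and with limma without a filter (adjusted p = 0.0665) and held in the other 14 of 16 alternative fits. Lef1 lost its call without Dex replicate 3 (0.23, adjusted p = 0.087) or without Dex+IL27 replicate 1 (0.25, adjusted p = 0.0625) or 3 (0.22, adjusted p = 0.0851), and with scaling by library totals (adjusted p = 0.0651) or limma without a filter (0.0503). It held in 11 of 16 alternative fits. Satb1, at 0.22 ± 0.08, did not pass (adjusted p = 0.0649) but passed in 4 of 16 alternative fits. These were without Dex+IL27 replicate 2 (0.30, adjusted p = 0.0143), with no low-count filter (adjusted p = 0.0313), with all 24 libraries in 1 fit (0.0371) and with only Dex+IL27 and Dex (0.0364). Against IL27, 3 of 8 were higher (11.7% of all tested genes) and 1 lower (14.3%). These were Bcl6, Satb1 (0.62 ± 0.09, adjusted p = 1.4e-04), Lef1 (0.41 ± 0.08, adjusted p = 0.00206) and, lower, Tcf7 (-1.50 ± 0.25, adjusted p = 6.2e-04). Without IL27 replicate 1 these were 0.69 for Satb1, 0.50 for Lef1 and -1.59 for Tcf7. The Dex by IL27 interaction passed in no gene upward (13.7% of all tested genes) and in 2 of 8 downward (14.7%), Tcf7 and Satb1.

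At day 3 the change with Dex was under 1 log2 unit in all 8 genes. In WT cells with Dex, S1pr1, Lef1 and Satb1 rose and Id3 and Tcf7 fell. That is 3 of 8 higher (4.93% of all tested genes) and 2 of 8 lower (4.5%). In cKO cells no gene passed in the whole table (0%). By edgeR 399 genes had an unadjusted p under 0.05, and DESeq2 and limma on FPKM with a low-value filter also passed 0 genes, while edgeR without the low-count filter passed 26 genes, none of them among the 9. Tsc22d3, a glucocorticoid-induced gene, rose by 1.73 ± 0.11 with Dex in WT cells (adjusted p = 8.4e-09), and its change in cKO cells was 0.24 ± 0.11 (adjusted p = 1). At day 9 Tsc22d3 also rose with IL27 alone, by 2.36 ± 0.11 (adjusted p = 1.7e-09; 2.26 without IL27 replicate 1), so it does not mark Dex alone there.

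S1pr1 had 7.40, 8.13 and 8.51 FPKM in WT Dex and 5.33, 5.22 and 4.0 FPKM in WT Ctrl. In cKO cells it had 6.04, 7.13 and 5.41 FPKM with Dex and 5.34, 5.73 and 5.23 FPKM in Ctrl. WT Dex lay above all other day 3 libraries, and the cKO groups overlapped. The rise in WT was 0.74 ± 0.13 (adjusted p = 0.00107), and the change in cKO was 0.19 ± 0.13 (adjusted p = 1). Lef1 had 66.9, 71.5 and 71.7 FPKM in WT Dex and 55.0, 54.4 and 54.2 FPKM in WT Ctrl. In cKO cells Lef1 had 64.0, 62.1 and 57.8 FPKM with Dex and 65.1, 60.5 and 59.1 FPKM in Ctrl. The WT groups did not overlap and the cKO groups did. Lef1 rose by 0.38 ± 0.06 in WT (adjusted p = 2.7e-04), and its change in cKO was under its SE. Of the 8 genes, only Lef1 passed in the test of the Dex change between genotypes, with a WT minus cKO difference of 0.38 ± 0.08 (adjusted p = 0.0112). That is 1 of 8 upward (1.57% of all tested genes) and none downward (1.38%). For S1pr1 this difference, 0.55 ± 0.18, did not pass (adjusted p = 0.125).

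Id3 had 42.0, 38.8 and 35.2 FPKM in WT Dex and 55.2, 57.5 and 48.7 FPKM in WT Ctrl, with no overlap, and fell by 0.46 ± 0.11 (adjusted p = 0.0117). The fall of Id3 lost its call without WT Ctrl replicate 2 (-0.41, adjusted p = 0.0655) or WT Dex replicate 3 (-0.40, adjusted p = 0.0743), and with limma without a filter (adjusted p = 0.0504). Its WT minus cKO difference, -0.53 ± 0.16, did not pass (adjusted p = 0.077) but did without cKO Ctrl replicate 4 (-0.63, adjusted p = 0.0461) or cKO Dex replicate 6 (-0.59, adjusted p = 0.0471). It also passed with no low-count filter (-0.53, adjusted p = 0.00267), with DESeq2 (-0.54, adjusted p = 0.0272) and with the replicate block (-0.54, adjusted p = 0.0136), which makes 5 of 21 alternative fits (adjusted p up to 0.19 in the others). Tcf7 had 26.1, 27.1 and 23.8 FPKM in WT Dex and 30.9, 31.1 and 29.3 FPKM in WT Ctrl, also with no overlap. In cKO cells Tcf7 had 36.2, 32.9 and 33.8 FPKM with Dex and 33.1, 34.3 and 31.0 FPKM in Ctrl, and its WT minus cKO difference, -0.30 ± 0.10, did not pass (adjusted p = 0.125). The change of -0.23 ± 0.07 in WT cells was near the threshold (adjusted p = 0.0464). The Tcf7 call was lost without WT Ctrl replicate 1, 2 or 3 or WT Dex replicate 1 or 3, where the change lay between -0.18 (adjusted p = 0.207) and -0.25 (adjusted p = 0.0578). It was also lost with no low-count filter (adjusted p = 0.0592) and with all 24 libraries in 1 fit (0.403), and held in 9 of 16 alternative fits. Satb1 ranged over 23.6 to 27.3 FPKM in WT Dex and 21.6 to 22.6 FPKM in WT Ctrl and rose by 0.24 ± 0.06 (adjusted p = 0.0173). Its call was lost without WT Ctrl replicate 2 or 3 or WT Dex replicate 1 or 3, where the change lay between 0.20 (adjusted p = 0.103) and 0.24 (adjusted p = 0.0649). The Satb1 call was also lost with limma on FPKM plus 1 (adjusted p = 0.0537, or 0.0668 unfiltered) or plus 0.1 (0.0544) and with all 24 libraries in 1 fit (0.0579), and held in 8 of 16 alternative fits. The count of 5 genes fell to 2 without WT Ctrl replicate 2 or WT Dex replicate 3. It fell to 3 without WT Ctrl replicate 3 or WT Dex replicate 1. Calls over all tested genes fell too, from 590 higher and 539 lower with all libraries. Both directions together, they were 722, 691, 1013 and 767 in the same fits and order. The WT minus cKO difference of Satb1, 0.27 ± 0.09, did not pass (adjusted p = 0.107) but passed without WT Dex replicate 2 (0.33, adjusted p = 0.0491). Bach2, at -0.25 ± 0.08 in WT, did not pass (adjusted p = 0.0775) but did with scaling by library totals (-0.28, adjusted p = 0.0453), and the changes of Foxo1 and Bcl6 were under their SE.

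**Figure D4:**
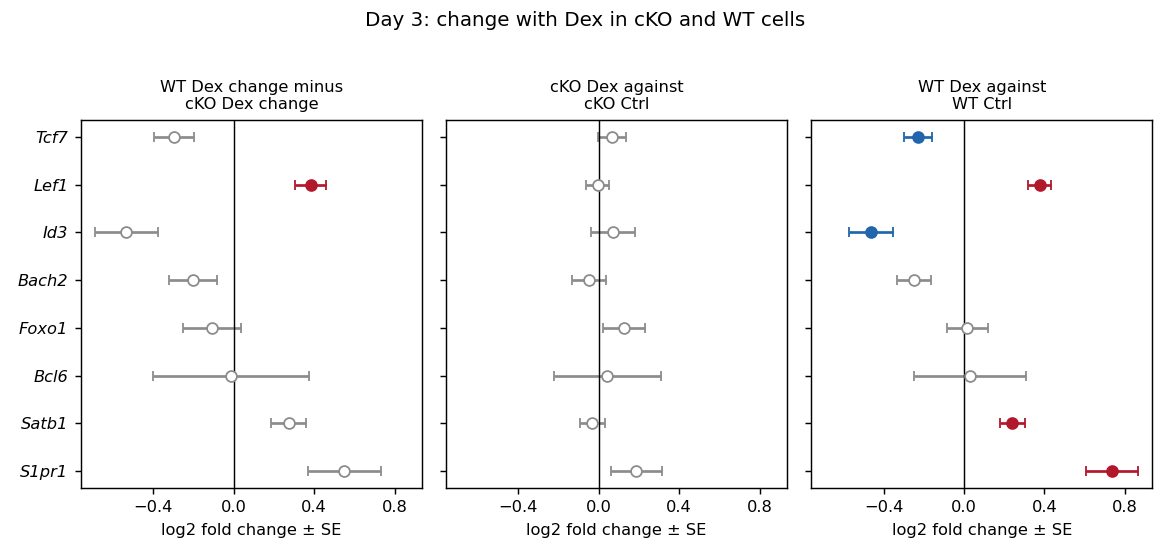
Log2 fold change ± SE (x axis) of the 8 tested genes (rows) at day 3: the change with Dex in WT minus that in cKO, the change in cKO and the change in WT (3 libraries a group). Filled red points passed upward, filled blue points downward and open grey points did not pass; no gene passed in cKO, and Lef1 passed in the difference.

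Without Dex, none of the 8 genes passed between cKO and WT cells in either direction, where 1.38% of all tested genes were higher in cKO and 0.986% lower. The differences ranged from -0.23 ± 0.11 for Id3 (adjusted p = 0.29) to 0.28 ± 0.27 for Bcl6 (adjusted p = 0.654). Lef1 differed by 0.19 ± 0.06 (adjusted p = 0.0896) and passed in 0 of 15 alternative fits. Its libraries did not overlap, with 59.1 to 65.1 FPKM in cKO Ctrl against 54.2 to 55.0 FPKM in WT Ctrl. At an unadjusted p under 0.05 the fit held 2049 genes, and DESeq2 and limma also passed none of the 8. With Dex, Tcf7 was higher in cKO than WT by 0.41 ± 0.07 (adjusted p = 9.7e-04), from 32.9 to 36.2 FPKM in cKO Dex against 23.8 to 27.1 FPKM in WT Dex. That is 1 of 8 higher (3.63% of all tested genes). The Tcf7 call held in 14 of 15 alternative fits and was lost with all 24 libraries in 1 fit (0.42, adjusted p = 0.117). Satb1 (-0.25 ± 0.06, adjusted p = 0.0182) and Lef1 (-0.20 ± 0.06, adjusted p = 0.0418) were lower, 2 of 8 (3.28% of all tested genes). The Satb1 call was lost without WT Dex replicate 1 (-0.20, adjusted p = 0.116) or 3 (-0.23, adjusted p = 0.0776) or cKO Dex replicate 4 (-0.24, adjusted p = 0.0709) or 5 (-0.23, adjusted p = 0.0898), with limma without a filter (adjusted p = 0.0622) and with all 24 libraries in 1 fit (0.0577), and held in 9 of 15 alternative fits. Lef1 lost its call without WT Dex replicate 1, 2 or 3 or cKO Dex replicate 5 or 6, where it lay between -0.15 (adjusted p = 0.106) and -0.23 (adjusted p = 0.056). It was also lost in the 3 limma fits (adjusted p = 0.0534 to 0.0687), with all 24 libraries in 1 fit (0.114) and with only the 2 groups compared (0.0677), and held in 5 of 15 alternative fits. Without cKO Dex replicate 5, S1pr1 passed as lower in cKO (-0.50, adjusted p = 0.0466), beside -0.38 ± 0.13 with all libraries (adjusted p = 0.0867).

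Klf2, a quiescence and homing factor, was too low for the test within a day. At day 3 it had 7, 19 and 9 estimated counts in the WT Dex libraries and 0, 2 and 0 in WT Ctrl, or 35 against 2 in sum. The ratio per total count was 17.0 (exact 95% interval 4.37 to 146), and edgeR without the filter gave an adjusted p of 0.016. In cKO cells the sums were 7 with Dex and 6 in Ctrl, a ratio of 1.08 (0.312 to 3.9). With Dex, cKO against WT gave a ratio of 0.183 (0.0687 to 0.419). This did not pass in edgeR without the filter (-2.40 ± 1.01, adjusted p = 0.174). At day 9 the counts were 13, 3 and 12 in Dex+IL27, with a sum of 28 beside 9 in Dex, 7 in IL27 and 3 in Ctrl. Dex+IL27 against Ctrl gave a ratio of 9.18 (2.84 to 47.2; adjusted p = 0.02 without the filter). The other ratios to Ctrl, 3.27 (0.815 to 18.8) for Dex and 2.27 (0.517 to 13.6) for IL27, have intervals that include 1. Intervals pool the libraries of a group and leave out the spread between them. Amplified reads are not independent molecules, so the intervals may be too narrow even for counting error. Klf2 remained under 1 FPKM in all 24 libraries.

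The change with Dex differed between days for 6 of the 9 genes, in 1 fit of all 24 libraries. Culture history and the letter that opens the sample titles (E or D) run with day and cannot be told apart from it. The day 9 change minus the day 3 change was higher for 5 (20.4% of all tested genes) and lower for 1 (19.2%). Id3 rose with Dex at day 9 and fell at day 3, a difference of 0.97 ± 0.18 (adjusted p = 1.3e-04). S1pr1 went the other way, down at day 9 and up at day 3, a difference of -1.01 ± 0.18 (adjusted p = 7.7e-05). The day 9 calls with Dex alone held in 11 of 16 alternative fits for Id3 and in 10 of 16 for S1pr1. Satb1 rose more at day 9 by 0.90 ± 0.11 (adjusted p = 3.6e-07), and Lef1 by 0.33 ± 0.10 (adjusted p = 0.00877). Foxo1 and Bcl6 rose with Dex at day 9 by 0.76 ± 0.14 and 2.52 ± 0.58, and at day 3 their changes were under their SE. The difference between days was 0.78 ± 0.18 for Foxo1 (adjusted p = 0.00112) and 2.53 ± 0.65 for Bcl6 (adjusted p = 0.0029). For Bcl6 it passed in 19 of 20 alternative fits and not in limma on unfiltered log2 FPKM plus 1 (0.74 on that scale, adjusted p = 0.091). Klf2, at -2.25 ± 1.67, did not pass (adjusted p = 0.306). Bach2, at 0.42 ± 0.18, did not pass (adjusted p = 0.0609) but passed without WT Dex replicate 3 of day 3 (0.49, adjusted p = 0.0463) or Ctrl replicate 1 of day 9 (0.50, adjusted p = 0.038), and with the replicate block (0.43, adjusted p = 0.0191), 3 of 20 alternative fits.

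Between days, in Ctrl cells, 7 of the 9 genes were lower at day 9 than at day 3 (24.1% of all tested genes) and 1 was higher (24.3%). Id3 was lower by -2.43 ± 0.13 (adjusted p = 2.3e-13), with 9.19 to 11.0 FPKM at day 9 against 48.7 to 57.5 FPKM at day 3. Bcl6 (-2.39 ± 0.50, adjusted p = 3.5e-04), Tcf7 (-1.62 ± 0.16, adjusted p = 7.5e-09) and Bach2 (-1.55 ± 0.13, adjusted p = 4.2e-10) were also lower by more than 1 log2 unit. Foxo1 (-0.82 ± 0.13), Satb1 (-0.35 ± 0.08) and Lef1 (-0.27 ± 0.07) were lower by less (adjusted p = 9.6e-06, 5.4e-04 and 0.00227). S1pr1 was higher by 2.10 ± 0.13 (adjusted p = 3.1e-12), with 17.4 to 25.3 FPKM at day 9 against 4.0 to 5.33 FPKM at day 3. Day, culture history and the letter that opens the sample titles (E or D) run together here and cannot be told apart.

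The order of the 8 groups by mean FPKM differed from gene to gene. Tcf7, Id3 and Bach2 were higher in each day 3 group than in any day 9 group, without overlap at that step, and S1pr1 was higher in each day 9 group, also without overlap. For Bcl6 and Lef1 the Dex+IL27 group stood above all others and the day 9 Ctrl group below all others, each without overlap to its neighbour. In Satb1 day 9 Ctrl was lowest without overlap, and Dex+IL27 and Dex at the top overlapped. In Foxo1 the day 9 Ctrl group alone was separated, below all others. All neighbours in the order of Klf2 overlapped.

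Related genes were described from 4 lists. Each list's counts stand against the shares of all tested genes: 34.2% rose and 32.6% fell with Dex+IL27, 28.2% and 27.4% with Dex, and 29.3% and 28.1% with IL27 at day 9 (25.6% and 25.3% without IL27 replicate 1). At day 3, 4.93% rose and 4.5% fell with Dex in WT cells. Of the 10 counterparts in effector cells, 4 rose and 3 fell with Dex+IL27, 3 rose and 4 fell with Dex, and 2 rose and 3 fell with IL27 at day 9 (also 2 and 3 without IL27 replicate 1). With Dex+IL27 these counts are near the shares of all genes, and the median change of the 10 was 0.05, beside 0.05 over all genes. Eomes, a T-box factor of effector and memory cells, fell in all 3, by changes of -6.26 ± 0.67, -2.82 ± 0.48 and -3.59 ± 0.51 in the same order. Nfil3, a basic leucine zipper factor, rose by 2.17 ± 0.16, 1.49 ± 0.16 and 1.86 ± 0.16. Prdm1, which encodes the effector repressor Blimp-1, rose by 1.60 ± 0.20 with Dex+IL27 and by 0.59 ± 0.21 with IL27, but without IL27 replicate 1 the IL27 call was lost (0.41, adjusted p = 0.116). Irf4, a factor induced by receptor signals, changed by -1.25 ± 0.15 with Dex+IL27 and by -0.63 ± 0.15 with IL27. Id2, a relative of Id3 that marks effector cells, rose with Dex by 0.80 ± 0.12 at day 9 and 1.72 ± 0.11 at day 3 in WT cells. At day 3 in WT cells 4 of the 10 rose (4.93% of all genes) and 3 fell (4.5%) with Dex, with Eomes at -1.90 ± 0.19 and Nfil3 at 0.95 ± 0.12. Without IL27 replicate 1 the changes with IL27 were -4.24 for Eomes, 1.96 for Nfil3 and -0.52 for Irf4, all past the test. All changes of listed genes given with an SE passed the test with all libraries.

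Of 22 surface and homing genes, 9 rose and 6 fell with Dex+IL27, 9 rose and 4 fell with Dex, and 11 rose and 3 fell with IL27. The median change of the 22 was 0.53 with Dex+IL27, 0.51 with Dex and 0.47 with IL27. With IL27 and without its replicate 1, 7 rose and 3 fell, with a median of 0.26. The counts with Dex+IL27 lie near the shares of all genes. Il7r, the IL7 receptor chain of long-lived T cells, rose by 1.92 ± 0.12 with Dex+IL27 and 1.40 ± 0.12 with Dex at day 9, and by 0.81 ± 0.08 with Dex at day 3. Dapl1 changed by -4.98 ± 0.58 with Dex+IL27 and by -3.74 ± 0.51 with IL27 (-3.41 without IL27 replicate 1). Il6ra, a chain of the IL6 receptor, rose by 2.77 ± 0.78 with Dex+IL27, 5.68 ± 0.68 with Dex, and 1.98 ± 0.39 with Dex at day 3. At day 3, 6 of the 22 rose (4.93% of all genes) and 4 fell (4.5%) with Dex in WT cells. In Ctrl cells 16 of the 22 were lower at day 9 than at day 3 (24.1% of all genes) and 5 higher (24.3%), with a median of -1.26, beside -0.01 over all genes.

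Among 19 paralogs of the 9 genes, 13 were tested at day 9. Of these 9 rose and 1 fell with Dex+IL27 (34.2% and 32.6% of all genes), 7 rose and none fell with Dex (28.2% and 27.4%), and 7 rose and 1 fell with IL27 (29.3% and 28.1%). With IL27 and without its replicate 1, 4 rose and 1 fell, of 14 tested. The median change was 0.61 with Dex+IL27, 0.49 with Dex and 0.68 with IL27. Foxo3, a paralog of Foxo1, rose by 1.83 ± 0.18, 1.13 ± 0.19 and 1.36 ± 0.18. Klf4, a paralog of Klf2, rose by 3.57 ± 0.78, 2.32 ± 0.87 and 2.31 ± 0.86 in the same order. The change with IL27 without IL27 replicate 1 was 1.31 for Foxo3 and 2.20 for Klf4, whose call was lost (adjusted p = 0.0728). S1pr3, a receptor related to S1pr1, fell by 1.92 ± 0.27 with Dex+IL27. At day 3 only Id2 and Foxo3 (0.71 ± 0.21) of 16 tested paralogs passed with Dex in WT cells, both upward. Of 18 partners and other factors, 10 rose and 2 fell with Dex+IL27 (34.2% and 32.6% of all genes), 9 rose and 3 fell with Dex (28.2% and 27.4%), and 7 rose and 2 fell with IL27 (29.3% and 28.1%; 6 and 2 without IL27 replicate 1). Tle2, a Groucho-type corepressor of the family that binds TCF factors, rose by 3.10 ± 0.26, 2.50 ± 0.26 and 2.52 ± 0.26. Runx1 rose by 2.54 ± 0.34, 1.69 ± 0.34 and 1.40 ± 0.34. The rise with IL27 was 2.25 for Tle2 and 1.04 for Runx1 without IL27 replicate 1, both past the test. Others fell at day 9: Myb changed by -0.77 ± 0.14 with Dex and Mafk by -0.84 ± 0.13 with IL27 (-0.72 without IL27 replicate 1). At day 3 with Dex in WT cells 2 of the 18 rose (Myb and Zeb1) and 1 fell (Stat5b). In cKO cells no gene of any list passed with Dex.

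Some of the 9 genes are also used by other cells, so markers of those cells were summed. Myeloid and dendritic markers (6 of 6 in the tables) summed to 8.54 to 11.7 CPM in Dex+IL27 and 1.68 to 1.96 CPM in Ctrl at day 9, with Lyz2 and Emr1 at 0 in every Dex+IL27 library. Itgam made up most of the Dex+IL27 sum, with a mean of 9.13 CPM in Dex+IL27 and 0.195 CPM in Ctrl. Cd14 had 0.67 CPM in Dex+IL27 and 0.914 CPM in Ctrl, and Flt3 had 0.525 and 0.595 CPM in the same order. B cell markers (4 of 5 in the tables) summed to 5.93 to 7.2 CPM in Dex+IL27 and 8.98 to 10.4 CPM in Ctrl, with Pax5 and Ms4a1 at 0 in both groups. Cd79b made up nearly all of both sums, with means of 6.4 CPM in Dex+IL27 and 9.7 CPM in Ctrl. CD4 T cell markers (4 of 4) summed to 12.3 to 14.1 CPM in Dex+IL27 and 12.8 to 22.2 CPM in Ctrl, while single markers differed in direction. Cd40lg averaged 0.432 CPM in Dex+IL27 and 9.98 CPM in Ctrl, Zbtb7b 11.5 CPM in Dex+IL27 and 6.57 CPM in Ctrl, and Cd4 1.19 CPM in Dex+IL27 and 0.416 CPM in Ctrl. Foxp3 averaged 0.019 CPM in Dex+IL27 and 0.544 CPM in Ctrl. In IL27 the CD4 T cell markers summed to 18.02 to 21.35 CPM, and Cd4 averaged 2.42 CPM. NK cell markers (3 of 3) summed to 1.56 to 2.91 CPM in Dex+IL27, 5.94 to 6.53 CPM in IL27 and 3.28 to 3.53 CPM in Ctrl. Klre1 made up most of these sums, with means of 1.84, 6.10 and 2.82 CPM in the same order. Klrb1c averaged 0.184 CPM in IL27 and 0.576 CPM in Ctrl, and Ncr1 0 and 0.036 CPM. In WT Ctrl at day 3, B cell markers summed to 17.2 to 21.1 CPM and CD4 T cell markers to 11.95 to 14.3 CPM. Myeloid and dendritic markers summed to 0.176 to 1.89 CPM in that group, and NK cell markers to 0.183 to 0.404 CPM. Foxp3 averaged 4.4 CPM there and Cd40lg 0.697 CPM, so the markers also differed between days. The part of these sums in the results was not tested. In bulk libraries, fewer cells with a transcript and less of it per cell cannot be told apart.

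Likeness was taken as the root mean square difference, in log2 CPM centred on each gene's mean over the 24 libraries, over genes averaging 10 CPM or more. Nearest to Tcf7 were Aff3 (0.44), Tox (0.47) and Tnfsf8 (0.49), where the SD of Tcf7 itself was 1.39. Tox was also the nearest gene to Id3 (0.30), followed by Nr4a1 (0.31) and Pim2 (0.36), with an SD of 1.41 for Id3. Lef1 was nearest to Tpt1 (0.09), Zfp935 (0.10) and Rps21 (0.10), with an SD of 0.24. Satb1 was nearest to Gna13 (0.11), Nipbl (0.12) and Mif4gd (0.12), with an SD of 0.38. For Bcl6, whose SD was 1.07, the nearest were Acss1 (0.46), Mxd1 (0.51) and Hbp1 (0.56). Bach2 (SD 0.61) was nearest to A430093F15Rik (0.17), Stat4 (0.22) and Hid1 (0.22), and S1pr1 (SD 0.89) to Serpinb6a (0.29), St3gal1 (0.29) and Myo10 (0.30). Foxo1 (SD 0.30) was nearest to Ccdc90b (0.12), Zfp68 (0.16) and Poli (0.16). Klf2 rests on 0 to 19 counts per library, and its nearest genes, Slc11a2, Epb4.1 and Kat6a (0.32 to 0.33), were hardly nearer than its own SD of 0.45.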

How the data were processed

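Per the labels, each of the 24 libraries came from 1000 sorted cells (SMART-Seq2, modified; 11 cycles of amplification; paired reads of 38 nt). The authors deposited gene-level estimated counts, not normalized. A second table deposited by the authors holds FPKM which, per the file name, are scaled by TMM. The submitters' processing notes name TopHat, RSEM, DESeq and mm9, without versions. An mm9 annotation was not used here, so genes are matched by symbol, and promoter windows come from RefSeq on GRCm38.p6.

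Counts were rounded and tested in edgeR 4.0.16 (R 4.3.3): two-sided quasi-likelihood F-test, TMM, filterByExpr (minimum count 10, total 15), prior count 0.125, with 1 mean per group. This left 11967 genes at day 3, 12320 at day 9 and 12666 over 24 libraries. There were 13 comparisons. SE is the log2 fold change over the root of F. Members' changes under their SE are not printed, and some larger ones that did not pass are also left out.

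Alternatives were DESeq2 size factors, library totals, no filter, DESeq2 1.42.0, limma 3.58.1 on log2 FPKM plus 1 or 0.1, other sample sets, the replicate block and leave-one-out, where a group left with 2 libraries shared the spread of the others. The test was checked on simulated data. Named genes are the 9 members, the 4 largest passing changes of each list in 4 comparisons (examples of these are given), the 3 nearest genes, Nr3c1 and Tsc22d3. The members and lists were chosen with earlier results of these data known. 1 marker of another cell type is not reported here and is left out of its sum.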

Additional observations from a re-analysis of the deposited data

Results flagged for a closer look

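The changes of 7 of the 9 genes differed between days, genotypes or treatments by a test of the difference itself (edgeR, Benjamini-Hochberg adjusted p over all genes). Of all tested genes, 20.4% passed upward and 19.2% downward between days, and 1.57% and 1.38% between genotypes. For the Dex by IL27 interaction these shares were 13.7% and 14.7%. Between days in WT cells, the Dex change at day 9 minus that at day 3 was 0.97 for Id3, -1.01 for S1pr1, 0.90 for Satb1, 0.33 for Lef1, 0.78 for Foxo1 and 2.53 for Bcl6 (log2). The adjusted p lay between 3.6e-07 for Satb1 and 0.00877 for Lef1. Between genotypes at day 3, the Dex change in WT minus that in cKO was 0.38 for Lef1 (adjusted p = 0.0112). With and without IL27 at day 9, the Dex change of Tcf7 differed by -1.36 (adjusted p = 0.00772) and that of Satb1 by -0.48 (adjusted p = 0.00835). The cause of these differences was not tested, and day runs together with culture history and the letter that opens the sample titles.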

How the results depend on the processing

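The members' changes that passed or were at least their SE, printed or not, had 1398 alternative values. Of these, 1315 kept direction and side of the threshold, 58 lost the call, 22 gained it and 3 turned sign. The sign turns were the Dex by IL27 interaction of Bcl6, which did not pass in any of its fits: 0.61 with limma on FPKM plus 1, with or without the filter, and -1.21 to 0.13 leaving out each library in turn. A further 23 changes under their own SE turned sign in 49 of 384 alternative values, and 0 of these passed. The number of members past the test with Dex in WT at day 3 was 2 to 5 leaving out each library. Over all tested genes 691 to 1013 passed in these fits, beside 590 higher and 539 lower with all libraries. The WT minus cKO difference gave 2 without the low-count filter, with DESeq2 and with the replicate block, each with Id3 added, and 1 to 2 leaving out each library. cKO Dex against WT Dex gave 1 with limma without a filter, 0 with all 24 libraries in 1 fit, and 1 to 2 leaving out each library. The Dex by IL27 interaction gave 4 with all 24 libraries in 1 fit, with Lef1 and Foxo1 added. The cause of these changes was not tested. The labels do not say whether a shared number marks a shared animal or culture, and 3 libraries per group cannot settle it. Same-numbered libraries within a day deviated together with r from -0.20 to 0.34, and in 0 of 8 group pairs did every r exceed 0.1. Between cKO Ctrl and cKO Dex, r was 0.119, 0.056 and 0.204, and all 3 cKO Ctrl libraries were nearest to their own number. Apart from the WT minus cKO count, the replicate block moved no count of members by over 1.5 times. The order of the 8 groups was the same by CPM and FPKM for 6 of the 9 members. Scaling by library totals gave a median of -0.07 over all genes with Dex+IL27 against Ctrl, in place of 0.05 with TMM, and turned no called member. Depth limits Klf2 at either day and Bcl6 in day 9 Ctrl.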
